A study of Mus musculus with 4 samples.

Results

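Rad21-dense stretches of the genome were described in mouse pro-B cells with and without 53BP1. They were defined as 1 Mb windows, counted from the start of each chromosome in the mm9 build, that held a mean of at least 25 Rad21 peaks over 4 libraries. A peak was given to the window that held its midpoint. Of 2482 windows on chromosomes 1 to 19, 131 met this rule. The rule left out 16 windows of 4 stretches that cover Igh, Igk, Tcra with Tcrd, and the major histocompatibility complex, and 9 of those 16 also reached the minimum. The 131 windows were 5.31% of the 2466 windows outside these stretches. Because peak counts chose the windows, the counts are given as a description. Tests were limited to peak width and strength and to differences between the genotypes. The mean over 4 libraries does not fix the genotype differences but can tilt them, since counts were not scaled to list length. Knockout 1 had the longest list. Of the 131 windows, 110 were also chosen without knockout 1, against 129 without WT 1, WT 2 or knockout 2.

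Rad21 is the subunit that closes the cohesin ring. Cohesin extrudes chromatin loops and is halted at sites bound by CTCF, so Rad21 peaks commonly mark loop anchors, with further peaks at active promoters and enhancers where cohesin is loaded or held. In B cell progenitors the same process brings distant antigen receptor segments together for V(D)J recombination. 53BP1 binds chromatin around DNA double-strand breaks and channels their repair towards end joining.

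Chromatin immunoprecipitation with sequencing was done in v-Abl transformed pro-B cell lines, that is, B cell precursors kept growing by a viral kinase. Both groups were RAG1 deficient and carried the Emu-Bcl2 transgene, which keeps arrested cells alive. Wild type (WT) here means cells of that background with 53BP1 intact, and the other group had a 53BP1 knockout in addition. All cells had received 3 uM STI-571, an inhibitor of the viral kinase, for 4 days. Each group had 2 libraries, numbered 1 and 2 by the labels, and whether these came from separate cultures or clones is not given in the sources used here. The labels name a Rad21 antibody in the protocol and a 53BP1 antibody in the treatment field, and the titles name Rad21. The lists of broad peaks held 21478 and 22515 peaks on chromosomes 1 to 19 in WT 1 and 2, and 24570 and 22228 in knockout 1 and 2. Read depth is unknown, and the lists name no genes.

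The dense windows lay on all 19 chromosomes but unevenly. Chromosome 11 held 22 of the 131, which was 18.0% of its windows. Chromosome 19 followed with 8 windows (12.9%), chromosome 17 with 9 (9.89%), and chromosomes 5 and 7 with 11 each (7.19% of windows on each). Chromosomes 13 and 18 held 1 window each, 0.826% and 1.10% of their windows. The mean number of peaks over all windows of a chromosome was also highest on chromosomes 11 and 19, with 13.6 and 12.9 peaks per window. It was 7.36 on chromosome 13 and 7.99 on chromosome 18. Chromosomes 14 and 3, with means of 7.13 and 7.36, held 4 and 6 dense windows, 3.25% and 3.75% of their windows. These shares were below the 5.31% over all windows but above those of chromosomes 13 and 18.

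**Figure D1:**
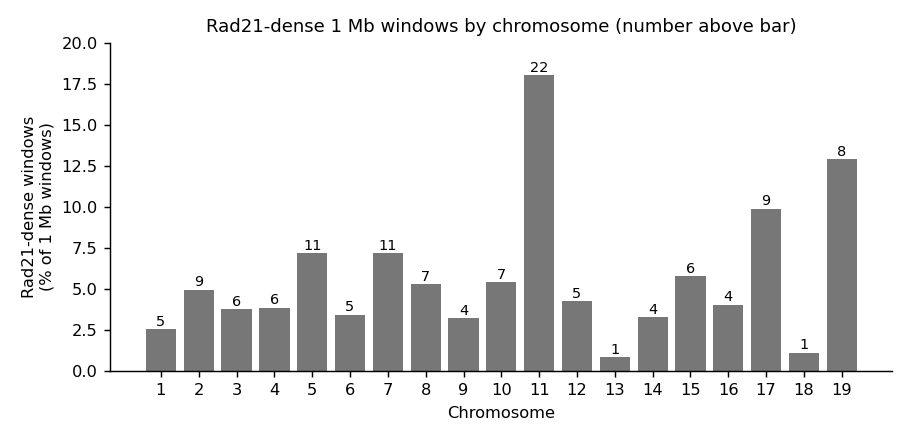
Share of the 1 Mb windows of each chromosome (x axis) that were Rad21-dense, in percent (y axis, bars), with the number of dense windows above each bar. Chromosome 11 stands highest with 22 windows, 18.0% of its total, and chromosomes 13 and 18 lowest with 1 each.

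Dense windows often adjoined each other. They formed 96 runs, of which 69 were single windows, 21 were pairs, 4 were runs of 3 and 2 were runs of 4. In all, 62 of the 131 windows (47.3%) touched another dense window. Windows directly beside a run held a median of 15.75 peaks, against a median of 6.50 over all 2335 windows elsewhere. The first median is over 190 run sides, so a window between 2 runs counts once for each. A run was therefore usually bordered by windows of intermediate count. Still, 2 border windows past the first 3 Mb of their chromosome held 0 peaks in all 4 libraries, beside chromosome 7, 31 to 32 Mb, and chromosome 12, 70 to 71 Mb. The dense window on chromosome 11, 3 to 4 Mb, adjoined the first 3 Mb of its chromosome, which in mm9 are known from background to be unsequenced. None of the 57 windows in the first 3 Mb of the 19 chromosomes held a peak. They are among the 301 windows without a peak, which are counted in the 2466 and the 2335. The 2034 windows elsewhere with a peak had a median of 8.0 peaks.

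One run of 4 covered chromosome 11 from 95 to 99 Mb, with 116 and 127 peaks in the WT pair and 129 and 109 in the knockout pair. Its second window, 96 to 97 Mb, is known from background to hold the Hoxb cluster of homeobox genes, which set positional identity in the embryo. That window held 28 and 27 peaks in the WT pair and 29 and 24 in the knockout pair, so the groups overlapped, and it was among the less dense windows of the run. The window at 98 to 99 Mb was the densest of the run, with 30, 38, 35 and 33 peaks in WT 1, WT 2, knockout 1 and knockout 2. The other run of 4 lay on chromosome 4, 132 to 136 Mb, with 106, 116, 121 and 105 peaks in the same order.

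Of the runs of 3, chromosome 19, 4 to 7 Mb had the highest mean, 34.8 peaks per window, and summed to 100 and 100 peaks in the WT pair and 112 and 106 in the knockout pair. Chromosome 11, 115 to 118 Mb summed to 93 and 91 in the WT pair and 113 and 96 in the knockout pair. On chromosome 7, 133 to 136 Mb the sums were 86 and 85 against 108 and 96. In these 3 runs both knockout sums lay above both WT sums, as they did in 24.9% of the 1820 sets of 3 adjoining windows with a peak. These sums are not scaled to list length. On chromosome 3, 87 to 90 Mb the sums overlapped, with 81 and 84 in the WT pair and 93 and 83 in the knockout pair. Dense windows also bordered 2 of the left-out receptor stretches. Chromosome 12, 112 to 114 Mb, beside the Igh stretch, held 48 and 55 peaks in the WT pair and 57 and 43 in the knockout pair. Chromosome 14, 55 to 56 Mb, beside Tcra and Tcrd, held 26 and 32 in the WT pair and 26 and 26 in the knockout pair.

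The 2 densest windows adjoined each other on chromosome 10. The window at 80 to 81 Mb held 48 and 45 peaks in the WT pair and 51 and 58 in the knockout pair, a mean of 50.5. The window at 79 to 80 Mb held 44 and 44 in the WT pair and 52 and 51 in the knockout pair. The counts did not overlap between the genotypes in either window, both knockout counts being higher, as in 17.1% of all windows with a peak. The share was 27.6% among the windows of chromosomes 5 and 10 with a peak. It was 25.3% among windows with a mean from 20 to below 25 peaks. The next were chromosome 7, 31 to 32 Mb and chromosome 8, 74 to 75 Mb, both with a mean of 41.0. The first of these ranged most widely, with 39 and 43 peaks in the WT pair and 48 and 34 in the knockout pair, the knockout counts lying on either side of both WT counts. The second held 39 and 40 in the WT pair and 42 and 43 in the knockout pair. It adjoined the window at 73 to 74 Mb on chromosome 8, ranked 10th, with 36, 37, 37 and 35 peaks.

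Among the remaining windows of the first 10, chromosome 19, 5 to 6 Mb held 39 and 38 peaks in the WT pair and 41 and 42 in the knockout pair. Chromosome 7, 134 to 135 Mb held 37 and 36 against 42 and 37, and chromosome 11, 116 to 117 Mb held 33 and 35 against 44 and 37. Chromosome 1, 182 to 183 Mb went the other way, with 38 and 40 in the WT pair and 38 and 32 in the knockout pair. Chromosome 5, 137 to 138 Mb held 34 and 35 against 39 and 37. Most dense windows lay much nearer the minimum: 85 had a mean below 30 peaks, 36 from 30 to below 36, and 10 at 36 or more.

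**Figure D2:**
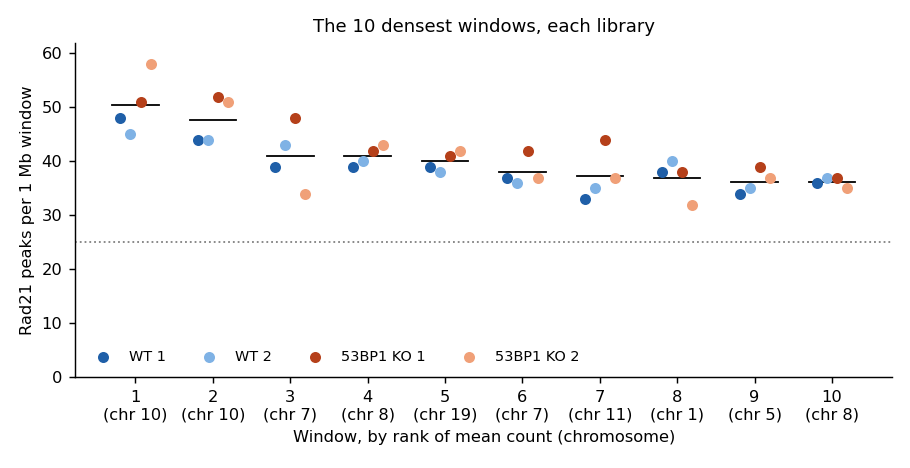
Rad21 peaks per 1 Mb window (y axis) in the 10 windows of highest mean count (x axis, by rank, with the chromosome). Points are libraries, black lines the mean of 4 libraries and the dotted line the minimum of 25. All points lie above the minimum, and the window of rank 3 shows the widest knockout spread, 34 and 48 peaks.

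At the edge of the rule, windows differed by less than their libraries did. Just inside, at a mean of 25.0, were for example chromosome 8, 86 to 87 Mb, with 26, 22, 33 and 19 peaks in WT 1, WT 2, knockout 1 and knockout 2, and chromosome 11, 59 to 60 Mb with 27, 25, 26 and 22. Just outside, at 24.75, were for example chromosome 3, 107 to 108 Mb with 26, 23, 26 and 24 peaks, and chromosome 8, 129 to 130 Mb with 24, 27, 24 and 24. At a mean of exactly 25.0 there were 5 windows, and 5 at 24.75. In 86 of the 131 windows all 4 lists held at least 25 peaks, and in 45 at least 1 list fell short. Knockout 1 never fell short, reaching 25 in all 131 windows. WT 1 reached it in 112, WT 2 in 118 and knockout 2 in 102.

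Windows chosen from 3 libraries were also dense in the library left out. The rule was set with earlier results of these data known, so this is a description and not an independent test. When the windows were chosen from 3 libraries, the library left out held a mean of 28.1 peaks in them for WT 1, 28.6 for WT 2, 32.4 for knockout 1 and 27.8 for knockout 2. Its mean over all windows outside the left-out stretches was 8.54, 8.95, 9.77 and 8.82 in the same order. The left-out library itself reached 25 peaks in 110 of 134 windows for WT 1, 116 of 138 for WT 2, 110 of 114 for knockout 1 and 100 of 144 for knockout 2. The lowest single count among these was 18, still above the means over all windows.

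Within the windows, peaks were spread over most of the megabase. Each window was divided into 10 bins of 100 kb, and a median of 9.25 bins held a peak (mean of the libraries, over 131 windows), against 4.75 in windows elsewhere that held any peak. The densest bin carried a median of 19.5% of a window's peaks. These shares are means over the libraries of each library's own densest bin. The most concentrated window, chromosome 1, 88 to 89 Mb, had a share of 33.7%, and the most even one, chromosome 10, 80 to 81 Mb, had 14.4%. Fewest bins were occupied on chromosome 5, 141 to 142 Mb, a mean of 6.75 of 10. These values follow partly from the rule, since more peaks fill more bins.

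The midpoints of neighbouring peaks in a dense window were a median of 23.1 and 22.6 kb apart in the WT pair and 20.8 and 22.1 kb in the knockout pair. Elsewhere the medians were 39.3, 38.8, 34.8 and 39.4 kb in the same order. Distances under 2 kb were only slightly more frequent than elsewhere, 2.21% to 2.52% of all in dense windows against 1.63% to 2.12%. Distances under 10 kb were 20.3% to 22.5% in dense windows, against 13.8% to 15.5% elsewhere. Distances over 100 kb, in contrast, were 3.15% to 4.60% of all in dense windows and 17.1% to 20.3% elsewhere. The longest distance without a peak inside a dense window was 401 kb, in WT 1. The difference from the rest was thus larger in distances over 100 kb than in those under 2 or 10 kb, and the count rule itself favours short distances.

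**Figure D3:**
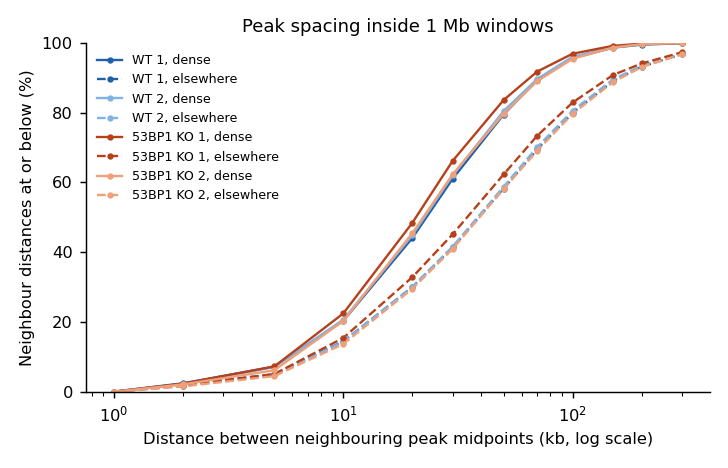
Cumulative share of distances between neighbouring peak midpoints within a window (y axis, percent) by distance (x axis, kb, log scale), for each library in dense windows (solid lines) and elsewhere (dashed lines). The 4 solid lines run together and, from 2 kb on, lie above the dashed ones. At 20 kb they stand at 44.1% to 48.4%, against 29.6% to 32.9% elsewhere.

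Peak width was not part of the rule. Peaks of dense windows were wider than peaks elsewhere in all 4 libraries. Median widths were 549 and 530 bp in the WT pair and 504 and 592 bp in the knockout pair, against 510, 506, 472 and 559 bp elsewhere. The mean difference was 32.0 ± 6.16 bp (SD, n = 4 libraries; two-sided exact sign-flip permutation p = 0.125, the smallest that 4 libraries allow). At regions where each library had exactly 1 peak, medians were 614 and 604 bp in the WT pair and 586 and 661 bp in the knockout pair in dense windows (2567 regions), against 590, 592, 564 and 650 bp elsewhere. The gap between the 2 knockout libraries was larger than the gap between dense windows and the rest. Among windows, the mean of the library medians ran from 417 bp on chromosome 7, 135 to 136 Mb to 662 bp on chromosome 5, 64 to 65 Mb.

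Peaks covered 1.69% and 1.67% of the dense windows in the WT pair and 1.76% and 1.86% in the knockout pair, against 0.421% to 0.481% elsewhere. The highest coverage was on chromosome 10, 80 to 81 Mb, 2.88%, and the lowest on chromosome 17, 5 to 6 Mb, 1.32%. Dense windows were therefore still mostly free of peaks.

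Strength was compared by the rank of a peak's fold enrichment within its own list, since folds belong to one list. The median percentile in dense windows was 46.0 and 48.3 in the WT pair and 50.2 and 47.5 in the knockout pair, against 49.9 to 50.4 elsewhere. The difference was −2.16 ± 2.02 percentile points (SD, n = 4 libraries), above 0 in 1 library, with an exact sign-flip permutation p of 0.25. The typical peak of a dense window thus ranked lower by fold in 3 of 4 libraries. By significance the order was the other way. A −log10 q of at least 5 was reached by 29.0% and 30.2% of dense-window peaks in the WT pair and 31.2% and 19.9% in the knockout pair, against 26.7%, 27.4%, 25.1% and 15.95% elsewhere, higher in 4 of 4 libraries.

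Each dense window held a mean of 8.22 and 8.81 such peaks in the WT pair and 10.0 and 5.67 in the knockout pair. Of the 131 windows with the most peaks of this significance, 92 were dense windows (70.2%). Such peaks are part of the counts that chose the windows, so this overlap follows partly from the rule. The counts varied widely among dense windows, from a mean of 2.25 on chromosome 5, 149 to 150 Mb to 15.25 on chromosome 10, 80 to 81 Mb. Median fold percentile varied as well, from 26.9 on chromosome 6, 120 to 121 Mb to 68.9 on chromosome 11, 101 to 102 Mb.

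Sharing of sites between libraries was then examined. Overlapping or touching peaks, whatever their list, were joined, which gave 5445 regions in the dense windows. Of these, 2616 (48.0%, Wilson 95% interval 46.7 to 49.4%) were called in all 4 libraries, against 40.5% (39.95 to 41.1%) of 27816 regions elsewhere, and 41.8% of all regions outside the left-out stretches. The intervals cover counting error only. In dense windows 1403 regions (25.8%) were called in a single library, against 31.6% elsewhere. A region called in every list adds most to a window's mean count, so this measure is not independent of the rule.

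The same held in each list. Of the peaks in dense windows, 71.1% and 69.0% lay in regions of all 4 libraries in the WT pair and 62.5% and 70.2% in the knockout pair. Elsewhere the shares were 65.6%, 62.2%, 57.2% and 62.8% in the same order. Knockout 1 had the lowest share both inside and outside dense windows, and its list was the longest. It also held more regions of 1 library in dense windows than any other list, 539 (9.90% of regions, against 10.9% of all regions outside the left-out stretches). WT 1 and 2 held 233 and 282 and knockout 2 held 349. Regions missing from 1 library alone were most often missing from knockout 2, with 261 (4.79%, against 5.49% of all regions). WT 1 and 2 lacked 179 and 140 and knockout 1 lacked 114. Knockout 1 and knockout 2 led these counts over all regions as well.

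Sharing differed between windows. It was lowest on chromosome 11, 69 to 70 Mb, where 14 of 48 regions (29.2%) were called in all 4 libraries although the window held 30, 32, 31 and 29 peaks in WT 1, WT 2, knockout 1 and knockout 2. It was highest on chromosome 6, 88 to 89 Mb, with 20 of 30 regions (66.7%) and 26, 25, 27 and 25 peaks. Equal counts in 4 libraries therefore did not mean equal positions.

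Over the whole range of counts, width and sharing were higher in denser windows, except between the classes from 15 to below 20 and from 20 to below 25 peaks. There sharing was alike, and median width was lower in the denser class in WT 2 (521 and 515 bp) and knockout 2 (574 and 571.5 bp). Regions of all 4 libraries were 30.2% in windows with a mean below 5 peaks, 37.8% from 5 to below 10, 41.3% from 10, 43.6% from 15, 43.2% from 20 to below 25 and 48.0% in the dense windows. Regions of a single library were 40.6% in the sparsest class. Median width, averaged over the libraries, was 457 bp in the sparsest class, 528 bp from 20 to below 25 and 544 bp in the dense windows. Dense windows thus had the highest values of these classes, and the 154 windows from 20 to below 25 came close to them in width.

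**Figure D4:**
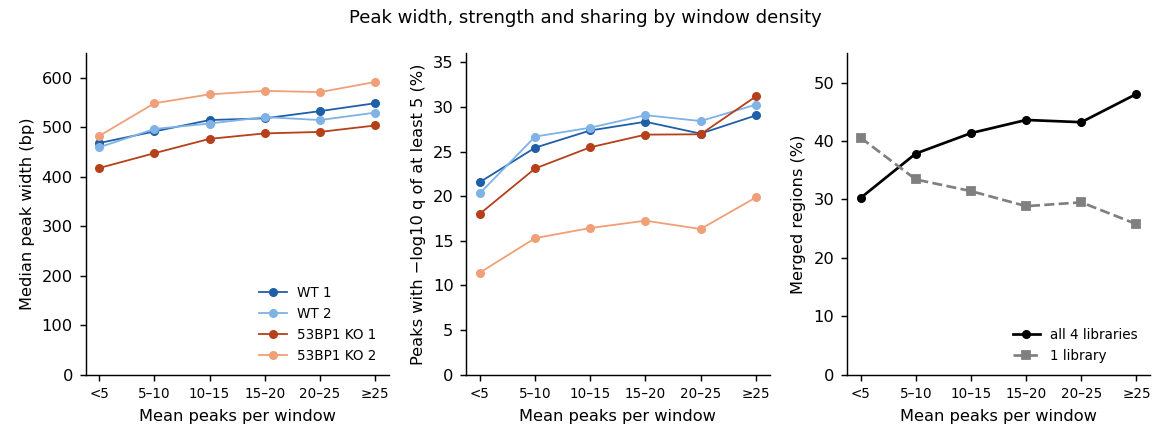
Median peak width in bp (left), share of peaks at a −log10 q of 5 or more in percent (middle) and share of merged regions called in all 4 libraries or in 1 library in percent (right), by mean number of peaks per window (x axis). Lines on the left and in the middle are libraries. All 4 libraries are widest in the class of 25 or more, and knockout 2 is the widest and has the lowest significance in every class.

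Regions shared by all 4 libraries in dense windows were the strongest ones there. Their median fold percentiles were 56.1 to 65.3 over the lists, against 18.1 to 23.2 for regions of 1 library. The same contrast held elsewhere, with 59.2 to 66.8 against 21.2 to 34.0, so it was not particular to dense windows. Every list reached a −log10 q of 5 in 475 of the 2616, and in 1806 of 11273 shared regions elsewhere. The strongest, ranked by the lowest of their percentiles, lay at chr3:95848445-95848924, and had folds of 9.66 and 10.3 in the WT lists and 9.79 and 10.3 in the knockout lists. It was followed by chr3:89576297-89577215 (8.21 and 6.44 in the WT pair, 8.04 and 5.66 in the knockout lists) and chr9:44830898-44831680 (6.36 and 6.48, 6.97 and 5.40). Next came chr15:76575388-76576125 (6.38 and 6.51, 6.71 and 5.87) and chr7:31158315-31159085 (7.08 and 5.96, 6.69 and 5.65). Folds are the authors' values and are not on one scale across lists.

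The widest shared regions were not the strongest ones. Of the 2616 shared regions, 25 (0.956%) were 2 kb or wider, against 149 of 11273 (1.32%) elsewhere. The widest lay at chr5:122683050-122685948, 2899 bp long, with widest peaks of 1188 and 1243 bp in the WT pair and 817 and 2564 bp in the knockout lists. Its folds of 2.99, 2.88, 3.02 and 2.79 were at percentiles 1.06 to 2.58 of their lists. The second lay at chr11:98647677-98650469, with peaks of up to 2237 and 583 bp in the WT pair and 450 and 932 bp in the knockout lists. The third was at chr11:82425339-82428003, with 935, 469, 615 and 2255 bp. A single list held a peak over 2 kb in the first 3 of these regions.

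The genotypes were then compared in the dense windows. They held 3709 and 3815 peaks in the WT pair and 4223 and 3743 in the knockout pair. Knockout 1 was above both WT libraries and knockout 2 lay between them. The means were 3762 ± 74.95 and 3983 ± 339 peaks (SD, n = 2 each), 221 peaks apart or 1.06-fold, the same ratio as for all peaks of chromosomes 1 to 19 (two-sided exact permutation p = 0.667, where 0.333 is the smallest possible). Knockout minus WT was 514 peaks for replicate 1 and −72 for replicate 2; in the lists, libraries of one replicate number share the start of their peak names. Without knockout 1, with windows chosen from the other 3 libraries, the difference was 7.5 peaks, and without knockout 2 it was 486.

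As a share of each list, dense windows held 17.3% (Wilson 95% interval 16.8 to 17.8%) and 16.9% (16.5 to 17.4%) of the peaks in the WT pair, and 17.2% (16.7 to 17.7%) and 16.8% (16.4 to 17.3%) in the knockout pair. The groups overlapped, and the difference was −0.093 percentage points, less than the SD of 0.23 between WT libraries (exact permutation p = 0.667). The dense windows thus kept a like share of the peaks in all 4 lists. Median width differed by 8.5 bp (539.5 ± 13.4 in the WT pair, 548 ± 62.2 in knockout, SD, n = 2 each, exact permutation p = 1), with the knockout libraries on either side of both WT values. That difference was −37.0 bp without knockout 2 and 54.0 bp without knockout 1. Covered length was 2.22 and 2.19 Mb in the WT pair and 2.31 and 2.43 Mb in the knockout pair (difference 0.163 Mb, exact permutation p = 0.333).

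Window by window, 33 of the 131 dense windows (25.2%) had both knockout counts above both WT counts, against a background of 17.1% over all 2165 windows with a peak. In 3 (2.29%) both lay below, against a background of 5.27%. In the 154 windows with a mean from 20 to below 25 peaks, 25.3% were higher and 4.55% lower, so the dense windows had nearly the share of the class next to them. The count of higher windows differed once list length was made equal: with all lists cut to one length, 16 dense windows were higher and 15 lower. At a fold of at least 4 they were 0 and 4. With windows chosen again from 3 libraries, 102 were higher and 8 lower without knockout 2, 36 and 38 without knockout 1, 50 and 17 without WT 1, and 56 and 7 without WT 2.

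Of the 33 higher windows, chromosome 10, 79 to 80 Mb, given above, had the widest gap, 7 peaks between the highest WT and the lowest knockout count. A gap of 5 peaks was found on chromosome 5, 123 to 124 Mb (28 and 28 in the WT pair, 35 and 33 in the knockout pair), chromosome 7, 133 to 134 Mb (24 and 28, 34 and 33) and chromosome 10, 59 to 60 Mb (25 and 25, 30 and 34). On chromosome 5, 125 to 126 Mb the gap was 3 peaks (25 and 27, 33 and 30), 1 of 5 windows with that gap. Of these named higher windows, all but the one on chromosome 7 lie on chromosomes 5 and 10, where 27.6% of windows with a peak were higher. The counts are not scaled to list length. The 3 lower windows had gaps of 1 peak. They were chromosome 4, 140 to 141 Mb (32 and 32 in the WT pair, 31 and 27 in the knockout pair), chromosome 11, 82 to 83 Mb (34 and 34, 33 and 31) and chromosome 12, 70 to 71 Mb (28 and 28, 27 and 26). In 24 of the 131 windows (18.3%) the difference of genotype means was larger than both differences within a genotype, near the background of 18.1% of all windows with a peak and below the 22.7% of windows with a mean from 20 to below 25.

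Each knockout library departed from WT in its own way. Knockout 1 lay above both WT counts in 95 dense windows (72.5%, background 43.3%) and below both in 6 (4.58%, background 11.5%). The background is mostly windows of far fewer peaks, a median of 8.0 elsewhere, and no class of like count was compared. The knockout 1 count is also part of the mean that chose the windows. Only 110 of the dense windows were chosen without knockout 1, so the rule itself raises its share above WT. How much of the 72.5% follows from the rule was not tested. As a share of its list, knockout 1 had 17.2% of its peaks in dense windows, against 17.3% and 16.9% for WT 1 and 2. Knockout 2 lay above both in 40 (30.5%, background 31.2%) and below both in 47 (35.9%, background 28.1%). Chromosomes 5 and 10 together carried 15.1% of the whole knockout 2 list, against 11.8% to 12.1% in the other lists. There knockout 2 was above both WT counts in 14 of 18 dense windows (background 64.8% of the 261 windows of these chromosomes with a peak) and below both in 1 (background 6.13%). The same excess was thus seen over these chromosomes as a whole. Its mean there was 35.0 peaks per window, against 29.8 and 30.8 in the WT pair and 33.9 in knockout 1. In the 113 dense windows of the other chromosomes it was above both in 26 (background 26.6%) and below both in 46 (background 31.1%), with a mean of 27.5 against 28.1 and 28.9 in the WT pair and 32.0 in knockout 1. Of the 33 higher windows, 10 were on chromosomes 5 and 10, among 18 dense windows there, where 27.6% of all windows with a peak were higher.

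**Figure D5:**
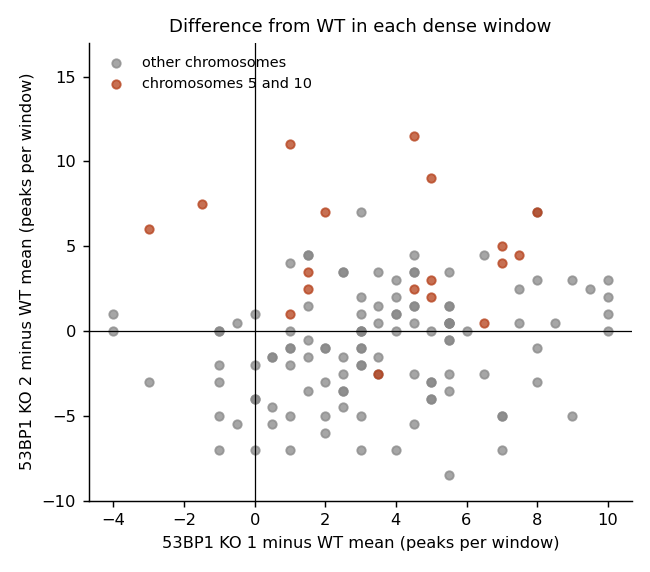
Each of the 131 dense windows by the difference of knockout 1 (x axis) and of knockout 2 (y axis) from the WT mean, in peaks per window. Points coincide where differences are equal. Windows of chromosomes 5 and 10 (red) lie mostly above 0 for both libraries, while the others (grey) spread to both sides of 0 for knockout 2.

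Few regions in dense windows followed genotype. A peak in both knockout lists and in no WT list defined 172 regions (3.16%, background 3.01%), and the reverse defined 106 (1.95%, background 2.19%). The shares were near those of all regions. Pairs of 1 WT and 1 knockout library alone gave 144, 73, 148 and 89 regions, so 172 was above and 106 within the range of these mixed pairs. The knockout-only regions were spread over 95 windows with at most 5 in one, and the WT-only regions over 68 windows with at most 4. With all lists cut to one length they numbered 134 and 128. With a −log10 q minimum of 3 they numbered 74 and 84. When 1 library was left out, and windows and classes were set from the other 3, knockout-only and WT-only regions numbered 775 and 239 without knockout 2, 484 and 322 without knockout 1, 323 and 415 without WT 1, and 373 and 368 without WT 2.

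None of these regions reached a −log10 q of 5 in both lists of its genotype. Ranked by lower fold, the leading knockout-only regions lay at chr7:25308572-25309092, with folds of 4.29 and 4.32 in knockout 1 and 2, at chr14:79313893-79314243 (4.75 and 4.21) and at chr12:70576255-70576661 (4.20 and 4.37). The last of these lies in a window that held fewer peaks in both knockout libraries than in WT. Next came chr6:87114742-87115123 (6.53 and 4.16) and chr11:72254476-72255018 (4.68 and 4.16).

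The first WT-only regions lay at chr11:95180867-95181210, with folds of 4.65 in WT 1 and 4.97 in WT 2, and at chr17:46508663-46509037 (4.63 and 4.89). The first is in the run of 4 dense windows that also holds the Hoxb cluster. They were followed by chr7:135922861-135923105 (4.51 and 4.41), chr11:97575815-97576167 (5.02 and 4.36) and chr6:146646835-146647169 (4.27 and 4.35). The region on chromosome 7 lies in a window, 135 to 136 Mb, in which both knockout counts, 32 and 26, were above both WT counts, 25 and 21.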

How the data were processed

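The authors deposited 1 list of broad peaks per library, with 9 columns and no header, so peaks were called per library. The tools listed in the submitters' processing notes are MACS2 2.2.7.1, Bowtie2 2.4.4, deepTools 3.5.1 and SAMtools 1.15.1, with the build mm9. Parameters and any input control: not given in the sources used here. The deposited fold is a ratio of signal to background. The deposited significance is −log10 p and −log10 q. The deposited score column equals that −log10 q times 10, as a whole number. Depth per library is unknown, so a weaker library can list fewer peaks for that reason alone.

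Windows, midpoints and merged regions (peaks of any list that overlap or touch) were computed with Python 3.11.15, pandas 2.3.3 and SciPy 1.17.1, and the steps were tested on simulated lists. Coordinates are 1-based. "Elsewhere" means windows of chromosomes 1 to 19 outside the dense windows and the left-out stretches. Genotypes were compared by a two-sided exact permutation test over 6 arrangements, which cannot give a p under 0.333 and so cannot pass 0.05. Where nothing says that libraries came from separate cultures, p-values measure only the spread between these libraries. The windows, the lists of alternatives and the rule for naming items were chosen with earlier results of these data known. Named were the 10 densest windows, runs of 3 or more, windows next to the minimum, windows and regions with the widest genotype gap (up to 5 a direction), windows at the extremes of width and sharing, the strongest and widest shared regions, and the Hoxb cluster. Windows at other extremes (bins, significance, fold percentile, coverage) and those beside the left-out stretches were picked after their values were seen. No mm9 genome or annotation was used here, so no genes are assigned from the files and no sequence is printed; the place of Hoxb and of the left-out loci is background knowledge.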

Additional observations from a re-analysis of the deposited data

How the results depend on the processing

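Read depth, 2 libraries per genotype and a fixed minimum limit these results; many windows lie within a few peaks of that minimum. Alternatives were 81 recomputed values besides leaving out a library; 54 kept their direction or stayed within their limits, 20 moved and 7 turned. The causes were not tested. A minimum of 20 gave 285 windows, 72 higher and 10 lower, 45.7% of regions in all libraries, 335 knockout-only and 202 WT-only. A minimum of 30 gave 46 windows, 15 higher, 69 and 45 such regions, and a share difference of 0.0034 points. Shifting windows by 0.5 Mb gave 46.2% in all libraries. With a −log10 q minimum of 3 the genotypes differed by −83.5 peaks and 0.679 points of share, with 7 windows higher and 7 lower, 40.6% of regions in all libraries and 74 knockout-only. At a fold of at least 4 they differed by −188 peaks, 0.253 points and −4.5 bp, with 0 windows higher, 21.3% in all libraries and 62 knockout-only. With all lists cut to one length the share differed by 0.088 points, with 16 windows higher and 15 lower.

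Leaving out 1 library gave 114 to 144 windows, differences of 7.5 to 486 peaks, −0.293 to 0.0606 points of share and −37.0 to 54.0 bp, 36 to 102 windows higher and 7 to 38 lower, 52.9% to 56.3% of regions in all remaining libraries, 323 to 775 knockout-only and 239 to 415 WT-only regions. The share turned positive without WT 1 (0.0606) or knockout 2 (0.028), and width turned to −37.0 bp without knockout 2. Dense windows stayed wider than the rest by 28.3 to 35.2 bp, and by 21.0 to 42.5 bp under the other alternatives. Their median fold percentile stayed lower under every alternative run, by −0.681 at a fold of at least 4 as the smallest difference.

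In the replicate block, differences within replicate numbers average to 221 peaks, −0.093 points and 8.5 bp, as they must with 1 library per genotype and number. The numbers share only a number and a name prefix. Differences between numbers, scaled to list length, correlated by 0.04 across 2466 windows and 0.057 across the dense windows, and were not taken as pairing.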

Other observations

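Chromosome X lay outside the rule. Its densest window, 11 to 12 Mb, held 13 and 12 peaks in the WT pair and 19 and 14 in the knockout pair, a mean of 14.5, and 0 windows of X reached 25.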
